A study of Mus musculus with 3 samples.

Results

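The Hox clusters HoxA, HoxB, HoxC and HoxD were examined as sets of accessible chromatin regions in mouse mesenchymal stem cells. Members were the ATAC-seq peak summits on chromosomes 1 to 19 whose nearest end of a protein-coding gene, within 50 kb, was that of 1 of 38 listed Hox genes, out of 20661 protein-coding genes on these chromosomes. The list held 10 HoxA, 10 HoxB, 9 HoxC and 9 HoxD genes. The deposited lists gave 91 such summits of 67404 in the day 7 immobilized library, 74 of 47912 in the day 7 non-immobilized library and 67 of 51722 in the day 0 library. After each list was reduced to its 47912 best-scoring summits, and summits whose windows of 250 bp on each side overlapped were merged, 88 of 67237 regions belonged to the Hox clusters.

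ATAC-seq uses a transposase that inserts sequencing adapters into open DNA. The study concerns heterotopic ossification, bone formed outside the skeleton. The 3 groups were cells of day 7 after injury with immobilization, cells of the same day without it, and cells of day 0, before the injury. Each was represented by 1 library, so differences have no replicates behind them and no test was possible. The sources used here state neither the strain, age or genotype of the mice nor the kind and site of the injury, the way the cells were isolated or whether animals were pooled. Intervals in brackets are exact (Clopper-Pearson) 95% binomial intervals and cover counting error only. A rank is a summit's place in its own reduced list by the authors' score, in percent, with 0% the best score.

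Hox genes encode homeodomain transcription factors that give cells their position along the body axis and along the limb. Within a cluster the genes lie in the order of their expression along the axis, from the low-numbered anterior genes to the high-numbered posterior ones, and genes of the same number in different clusters, called paralogs, have related functions. In limbs the posterior HoxA and HoxD genes pattern the successive segments and posterior HoxC genes are active in the hindlimb, and adult fibroblasts and mesenchymal cells keep part of this pattern as a positional memory. Outside their domain of expression Hox genes are held silent by Polycomb proteins.

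The libraries held 143818952, 173029378 and 176119937 read pairs at day 7 immobilized, day 7 non-immobilized and day 0, with 43.4%, 42.0% and 60.2% duplicates. Usable pairs were estimated from the trimmed pairs, the alignment rate and the duplicates. By this estimate the order differed from that of the raw pairs. Day 0 had the fewest usable pairs, the immobilized library had more and the non-immobilized library had the most. All 8 mesenchymal marker genes had regions, as had 73.2% of all protein-coding genes. Of their 64 regions 36, 38 and 49 were called in the same order of libraries. Of the regions near any gene 72.8%, 71.7% and 70.4% were called. Prrx1 had 4, 6 and 8 and Pdgfra 3, 4 and 6, while Ly6a had 2, 0 and 2. Markers of other cell types also had regions. The 6 endothelial markers had 22, 38 and 14 of 43 regions called, and Sox18 had 1, 4 and 0. The 6 keratinocyte markers had 29, 9 and 5 of 30, with Krt5 and Krt14 at 0 in the non-immobilized and day 0 libraries. The 5 skeletal muscle markers had 18, 17 and 26 of 30, and the 7 myeloid markers 9, 10 and 7 of 11, with Itgam, Lyz2 and Adgre1 at 0 in the 3 libraries. The part of these cells in the Hox results was not tested. In such bulk samples a change in the mix of cells and a change of chromatin within one kind of cell cannot be told apart.

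Among the libraries, HoxB had its fewest regions called at day 0, and HoxC had its fewest called in the non-immobilized day 7 library. In HoxB, 14 regions were called in the immobilized library, 21 in the non-immobilized library and 10 at day 0. Of its 27 regions these are 51.9% (31.9 to 71.3), 77.8% (57.7 to 91.4) and 37.0% (19.4 to 57.6), against backgrounds of 72.8%, 71.7% and 70.4% of the 51403 regions near any gene. The HoxB regions ranked worse than those, with medians of 66.7%, 66.0% and 61.6% by library. The medians of regions near any gene were 45.2%, 44.1% and 43.8%, and the backgrounds were not matched for rank. In HoxC the numbers were 22, 18 and 24, in HoxA 14, 19 and 16 and in HoxD 10, 10 and 7. Day 0 was lowest for HoxB, and the non-immobilized library lowest for HoxC, in each of the 9 alternative settings of list length, window width and gene assignment. The non-immobilized share of HoxC was 66.7% (46.0 to 83.5), near its background of 71.7%. Its share at day 0, 88.9% (70.8 to 97.6), was above the background of 70.4%. In the immobilized library it was 81.5% (61.9 to 93.7). In the same order of libraries the shares were 63.6%, 86.4% and 72.7% in HoxA and 83.3%, 83.3% and 58.3% in HoxD. The regions of the 4 clusters together numbered 60, 68 and 57, which are 68.2%, 77.3% and 64.8%.

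**Figure D1:**
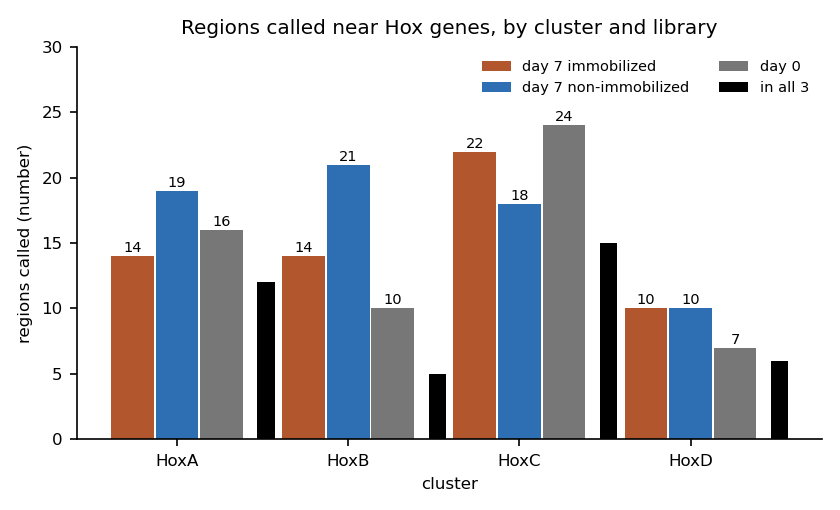
Number of regions called near Hox genes (y axis) in each cluster (x axis) for the 3 libraries, with a narrow black bar for regions called in all 3. HoxB shows 14, 21 and 10 regions and 5 shared ones, against 22, 18, 24 and 15 in HoxC.

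Of the 88 Hox regions, 38 were called in all 3 libraries, 43.2% (32.7 to 54.2), against a background of 48.4% of the 51403 regions within 50 kb of any gene end. A further 29 regions, 33.0% (23.3 to 43.8), were called in 1 library only, near the background of 33.5%. The clusters differed in these counts. HoxB had 5 of 27 regions in all 3 libraries, 18.5% (6.30 to 38.1), an interval that lies below the background. That background was not matched for rank, and the median ranks of HoxB regions were worse in each library. HoxC had 15 of 27 (55.6%, 35.3 to 74.5), HoxA 12 of 22 (54.5%, 32.2 to 75.6) and HoxD 6 of 12 (50%, 21.1 to 78.9). Regions called in 1 library only made up 14 of 27 in HoxB, 5 of 27 in HoxC, 7 of 22 in HoxA and 3 of 12 in HoxD. Regions of a cluster share a locus and are not replicates.

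Within 1 kb of an end were 34 of the 88, 38.6% (28.4 to 49.6), against a background of 27.1%. Of those 34, 16 were called in all 3 libraries (47.1%, 29.8 to 64.9), against 76.0% of the 13905 regions within 1 kb of an end of any protein-coding gene. These shares were not matched for rank. The Hox regions had median ranks of 43.4%, 50.7% and 47.3% by library, and the 13905 regions 16.3%, 16.9% and 16.6%. Of the 38 genes, 33 had at least 1 region. The 5 without a region were Hoxa6, Hoxb13, Hoxd4, Hoxd11 and Hoxd12, and of all protein-coding genes 73.2% had one. Hoxd11 is among the 5 by the rule of the nearest end, since a region that covered 1 of its starts lay nearer to an end of Hoxd10. The median number of regions per gene was 2 for Hox genes and 1 for all genes, while the means were 2.32 and 2.49. Within 50 kb of a gene's midpoint lay a median of 16.5 regions for Hox genes and 4 for all genes. The medians were 18.5, 17, 17 and 10 in HoxA, HoxB, HoxC and HoxD. Neighbouring Hox genes lie close together, so the same regions were counted for several of them.

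**Figure D2:**
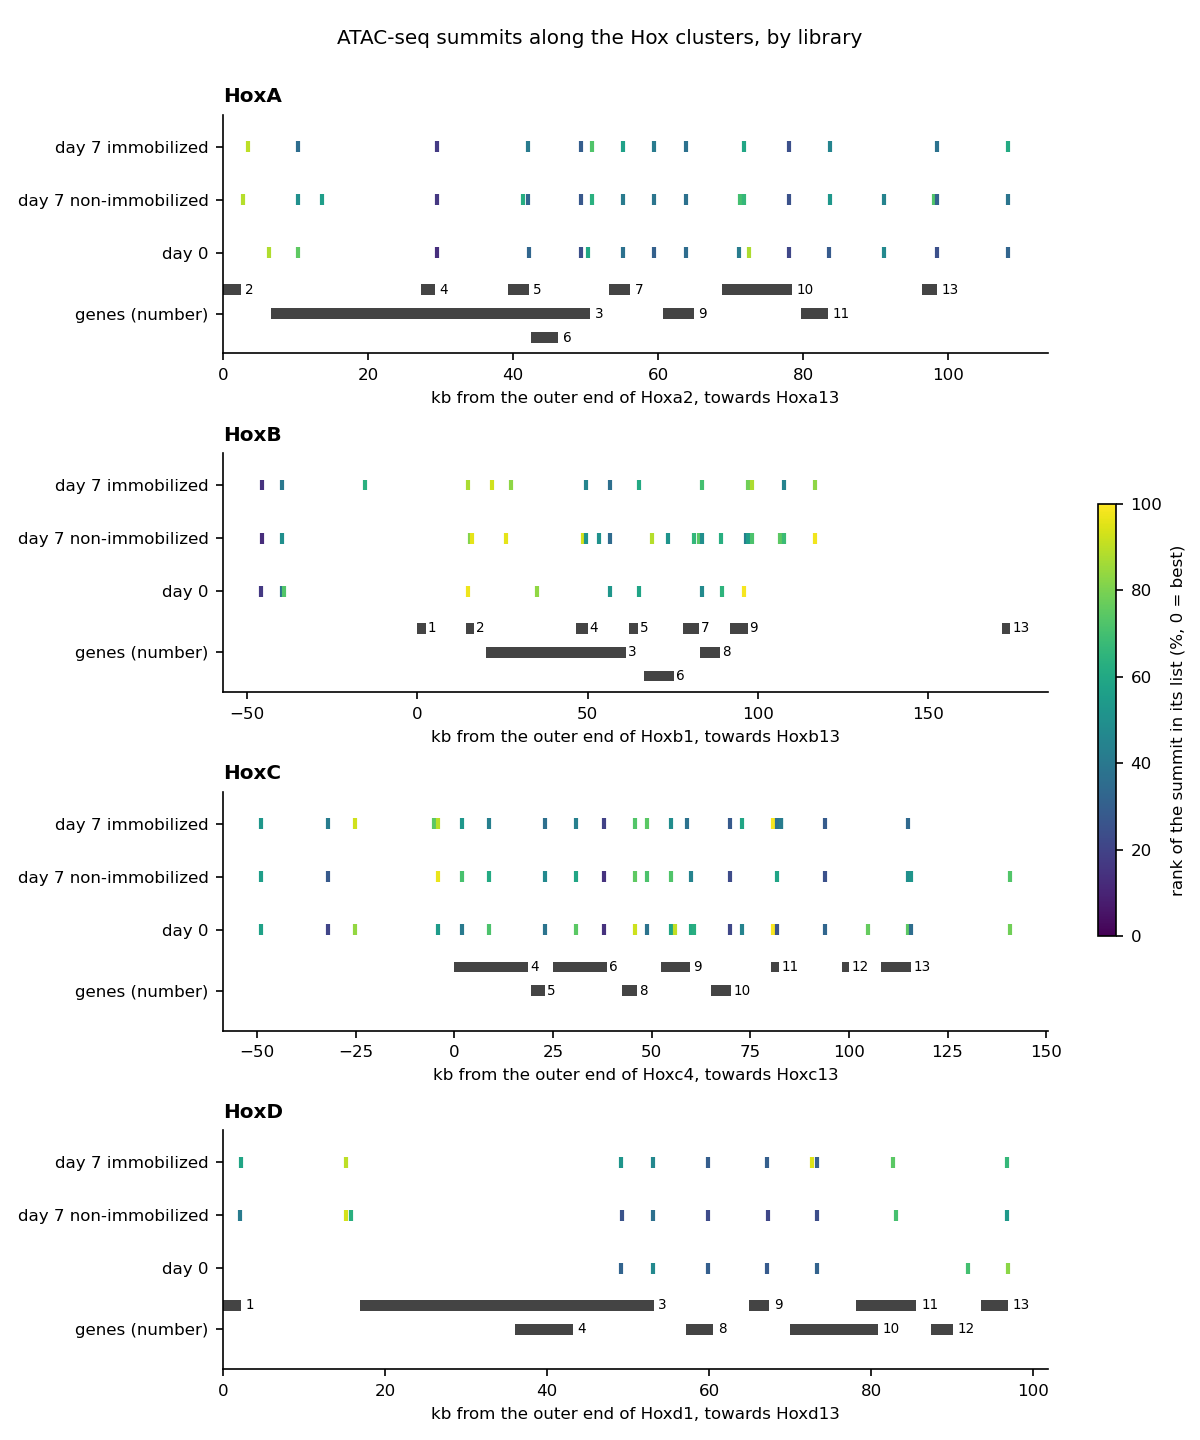
The best summit of each region along the 4 clusters in kb from the outer end of the lowest-numbered gene (x axis), with 1 row per library, the colour giving the rank of the summit in its list (0% the best), and the spans of the numbered genes below. Beyond 65.0 kb HoxB has more summits in the non-immobilized row than at day 0, none lies beyond 116.7 kb, and HoxD has no summit between 15.7 and 49.2 kb.

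The HoxA cluster (mm10, chromosome 6, 52162417 to 52260880, 98.5 kb from Hoxa2 to Hoxa13) had regions along most of its length. The longest stretch without a summit was 15.2 kb, from 13.7 to 28.9 kb from the outer end of Hoxa2, in the reduced and the deposited lists. Of the 10 HoxA genes 8 had a region called in all 3 libraries. The best-ranked region lay 236 bp beyond the end of Hoxa4 that faces Hoxa5. Hoxa4 is a gene active in the neck region of the vertebral column, and the region had ranks of 17.4%, 16.2% and 13.6% in the immobilized, non-immobilized and day 0 libraries. It held 2 summits in each deposited list.

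Among the anterior genes, Hoxa2, which patterns the branchial arches, had 2 regions upstream of its start that did not overlap. The one at 320 bp was called in the non-immobilized library only (rank 88.8%) and the one at 1107 bp in the immobilized library only (89.9%), and day 0 had none. Hoxa3, which is needed for thymus and parathyroid formation, had the most regions of the cluster, 5, with 3, 4 and 4 called by library. Its annotated span runs over Hoxa4, Hoxa5 and Hoxa6, so its regions lie at both edges of that stretch. Of these, 3 were called in all libraries, 1 at day 0 only (244 bp outside the gene, rank 87.9%) and 1 in the non-immobilized library only (rank 55.6%). That last one held a summit in the whole immobilized list, below the length to which it was reduced.

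Of the central genes, Hoxa5, a regulator of lung and airway formation, had a region 48 bp inside its start in all 3 libraries (ranks 41.2%, 32.6% and 32.7%) and 1 at 737 bp in the non-immobilized library only (rank 62.0%). Hoxa7 had 1 region, called in all 3 (56.7%, 41.1% and 37.5%). Hoxa6 had none.

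The posterior genes of HoxA, which pattern the limb segments, were called in every library. Hoxa9 had 2 regions and Hoxa11, which is needed for the forearm and lower leg, had 1, all called in the 3 libraries. The Hoxa11 region lay 237 bp upstream of the start with ranks of 45.1%, 52.8% and 28.3%. Hoxa10 had 4 regions, of which 2, 3 and 3 were called by library. The one 331 bp inside its outer start ranked at 24.5%, 25.3% and 21.3%. The 3 others lay side by side within the gene, with 1 called in the non-immobilized and day 0 libraries, 1 in both day 7 libraries and 1 at day 0 only (rank 87.6%).

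Hoxa13, which is needed for digits and toes, had 4 regions, of which 2, 4 and 3 were called by library. One lay 42 bp upstream of its start, with ranks of 37.9%, 31.3% and 24.4%. Another lay 9786 bp upstream, with ranks of 60.7%, 39.0% and 32.1%. The region 475 bp inside the gene was called in the non-immobilized library only, and the one 5275 bp beyond its inner end in the non-immobilized and day 0 libraries. Both held summits in the whole immobilized list, with scores below those kept.

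The start windows of Hoxa13 and Hoxa10 are shown because they hold the best-ranked summit in a start window of HoxA and a summit found at day 0 only. Each runs from 250 bases before to 50 after a start (RefSeq, GRCm38.p6, both on the minus strand, chr6:52260831-52261130 and chr6:52234890-52235189). Capitals mark the CCAAT box, the TATAAA box and the TGATNNAT site, which Hox proteins bind together with Pbx partners, on either strand.
Hoxa13: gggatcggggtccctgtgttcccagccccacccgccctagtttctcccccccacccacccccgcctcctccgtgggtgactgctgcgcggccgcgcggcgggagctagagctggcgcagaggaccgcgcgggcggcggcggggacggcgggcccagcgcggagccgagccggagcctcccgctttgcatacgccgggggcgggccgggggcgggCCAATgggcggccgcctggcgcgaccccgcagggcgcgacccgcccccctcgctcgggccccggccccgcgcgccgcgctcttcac
Hoxa10: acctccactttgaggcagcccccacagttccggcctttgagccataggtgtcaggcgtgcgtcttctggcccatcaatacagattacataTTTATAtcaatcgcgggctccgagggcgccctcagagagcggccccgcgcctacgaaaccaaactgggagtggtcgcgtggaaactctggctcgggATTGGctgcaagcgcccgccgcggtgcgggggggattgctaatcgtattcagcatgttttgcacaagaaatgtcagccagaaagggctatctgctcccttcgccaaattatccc
The Hoxa13 window had a GC content of 81.0% and 45 CpG, the most of all Hox windows, and its summits lay 66, 55 and 42 bases upstream of the start in the immobilized, non-immobilized and day 0 libraries. The Hoxa10 window had 57.3% GC and 21 CpG, and its day 0 summit lay 36 bases upstream.

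The HoxB cluster (chromosome 11, 96194316 to 96368254, 173.9 kb) had its fewest regions at day 0. Of 17 HoxB regions not called at day 0, 16 were also absent from the whole day 0 list. Most regions near any gene that were not called at day 0 were absent from it too. These were 8763 of 9521 called in the non-immobilized and 9325 of 9975 called in the immobilized library. Of the 17, 13 had no day 0 summit within 2 kb (76.5%, near the 71.8% for all 15228 regions not called at day 0). Its best-ranked region lay outside the cluster, 45565 bp beyond Hoxb1, with ranks of 14.1%, 12.7% and 16.7%. A neighbour at 39654 bp was also called in all 3 (40.2%, 49.6% and 38.6%), with 1 region at 39126 bp called at day 0 only (72.7%). Between these and the cluster, 15357 bp from Hoxb1, 1 region was called in the immobilized library only (63.3%), and the nearest summits lay 24274 bp away in the non-immobilized and 23769 bp away in the day 0 list.

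Within the cluster the anterior genes Hoxb2 and Hoxb3, which pattern the hindbrain, had 6 regions. The Hoxb2 region in all 3 libraries ranked at 87.3%, 81.3% and 97.3%, with 1 more in the non-immobilized library only (96.1%). Hoxb3 had 4 regions, 3, 2 and 1 by library. Its shared region, 4621 bp inside the gene, ranked at 36.2%, 34.4% and 52.6%. Of the other 3, 2 were specific to the immobilized list (82.9% and 92.8%) and 1 to the non-immobilized list (95.9%), with a summit in the whole immobilized list.

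Hoxb4, a factor of blood stem cell growth, had 4 regions, of which 1, 3 and 1 were called by library. The one 345 bp inside its start was called in both day 7 libraries (45.7% immobilized and 51.9% non-immobilized), and the nearest day 0 summit was 6888 bp away. Regions 3396 bp upstream (50.8%) and 1330 bp inside (93.6%) were called in the non-immobilized library only, and 1 at 11388 bp at day 0 only (83.3%). Hoxb5 had 1 region, called in the immobilized and day 0 libraries (60.5% and 58.3%).

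Hoxb6 and Hoxb7, genes of the trunk, had 2 regions each, all 4 called in the non-immobilized library only, with ranks of 51.8% and 88.7% for Hoxb6 and 66.0% and 74.0% for Hoxb7. All 4 held summits in the whole immobilized list, the nearest 16 to 155 bp away, and none held a day 0 summit at any score. Hoxb8 had a region in all 3 libraries (70.0%, 49.3% and 47.5%) and 1 in the non-immobilized and day 0 libraries (62.5% and 64.8%).

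Hoxb9, the last gene before a long gap, had the most regions of the cluster and the largest difference between libraries of any Hox gene, with 4, 6 and 1 called. The 1 region of the day 0 list, 563 bp inside the gene, ranked at 42.8% in the non-immobilized list and at 98.8% at day 0, and the whole immobilized list held 2 summits in it. The other 5 lay on the side of the gene that faces Hoxb13, at 171, 1284, 9618, 10812 and 19757 bp. Of these, 4 were called in both day 7 libraries, with ranks of 44.5% to 87.9% in the immobilized and 55.7% to 98.02% in the non-immobilized library, and the one at 9618 bp in the non-immobilized library only (74.8%). The whole day 0 list held a summit in the one at 1284 bp alone. Beyond them, no summit lay in the 57.3 kb up to the outer end of Hoxb13, a gene of prostate and tail tip, in any deposited list.

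The HoxC cluster (chromosome 15, 102921131 to 103036856, 115.7 kb) had its fewest regions in the non-immobilized library, and most of its differences at the posterior end. The non-immobilized share, 66.7%, was near the background of 71.7%, while the day 0 share, 88.9%, was above the background of 70.4%. The best-ranked region of HoxC lay 1192 bp inside the end of Hoxc6 that faces Hoxc8, with ranks of 19.5%, 14.6% and 14.4%. The central genes were close to uniform: of the 12 regions of Hoxc4, Hoxc5, Hoxc6 and Hoxc8, 10 were called in all 3 libraries, and 12, 10 and 11 by library.

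Hoxc4 had the most regions of any Hox gene, 7, called as 7, 5 and 6. Of these, 5 lay outside the cluster, up to 49151 bp beyond the gene. That farthest one, called in all 3 libraries (53.1%, 55.7% and 57.3%), was the last inside the distance limit, and the next lay 50491 bp away and was called at day 0 only (95.8%). The region 24669 bp away was called in the immobilized and day 0 libraries (92.6% and 83.6%) and the one at 4953 bp in the immobilized library only (74.5%). Hoxc5 had 1 region (36.5%, 47.0% and 38.5%), and Hoxc8 and Hoxc6 2 each, all called in the 3 libraries.

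Among the posterior genes, which are active in the hindlimb, lower trunk and tail, Hoxc9 had 4 regions, called as 2, 2 and 4. The 2 regions called at day 0 only lay 954 bp outside the gene (62.8%) and 3347 bp from its end (90.8%), and neither day 7 list held a summit in them at any score. Hoxc10 had a region 167 bp from its end in all 3 libraries (27.9%, 23.0% and 21.3%) and 1 at 2932 bp called in the immobilized and day 0 libraries (58.7% and 44.8%), with no non-immobilized summit nearer than 2738 bp.

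Hoxc11 had 4 regions, called as 4, 1 and 2. The region 667 bp inside the gene was the best-ranked Hox region missing from any library, at 36.8% in the immobilized and 25.8% in the day 0 list, and it was absent from the whole non-immobilized list. Of all 3946 regions that ranked between 20% and 30% at day 0, 84 (2.13%) were not called in the non-immobilized library. The region 731 bp outside the gene was called in the immobilized library only (41.6%), the one 457 bp inside in the immobilized and day 0 libraries (98.7% and 99.2%) and the one 88 bp outside in both day 7 libraries (55.7% and 58.3%). The single non-immobilized summit lay 640 bp from the best summit of the region at 667 bp. The files give summits and not the extent of peaks, so whether a peak reached from one region into the next was not measured.

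Hoxc12 had 1 region in all 3 libraries, 4819 bp from its end (28.7%, 24.9% and 32.5%). Hoxc13, which is needed for hair and nails, had 4 regions, called as 1, 3 and 4. The region 976 bp inside it ranked at 33.9%, 49.5% and 74.8%. The one 246 bp outside was called in the non-immobilized and day 0 libraries (52.3% and 35.3%), with the nearest immobilized summit 1222 bp away in any list. The region at 25091 bp was called in those same libraries (73.0% and 78.3%) and the one at 2875 bp at day 0 only (76.5%), and both held a summit in the whole immobilized list.

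The HoxD cluster (chromosome 2, 74668225 to 74765142, 96.9 kb) had the fewest regions, 12, none of them outside its span. Between 15.7 and 49.2 kb from the outer end of Hoxd1, a stretch that holds Hoxd4, no summit was kept, and in the deposited lists a gap of 24.5 kb remained. Its best-ranked region lay 121 bp inside Hoxd9, with ranks of 30.04%, 21.4% and 28.3%. Hoxd8 had a region 698 bp inside its start with nearly the same ranks (29.6%, 22.9% and 30.04%), and so had Hoxd10 87 bp upstream of a start (29.7%, 23.5% and 31.4%).

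Hoxd10, a gene of the lumbar spinal cord and the limb, had 3 regions, called as 3, 2 and 1. Besides the one at its start, 1 was called in both day 7 libraries (74.4% and 70.5%) inside the span of Hoxd11, and held 2 summits of the whole day 0 list. That region covered a start of Hoxd11 and counted for Hoxd10 because an end of Hoxd10 was nearest. The third was called in the immobilized library only (94.5%). Hoxd3, which is needed for the first neck vertebrae, had 4 regions, called as 3, 4 and 2. Those 90 and 3953 bp from its start were called in all 3 libraries, and the farther one had ranks of 52.2%, 25.7% and 31.7%. Those beyond its other end, at 1742 and 1146 bp, were called in both day 7 libraries (90.2% and 93.5%) and in the non-immobilized library only (63.1%), with the nearest day 0 summit 13398 and 13994 bp away. Hoxd1 had 1 region 18 bp upstream of its start in both day 7 libraries (58.9% and 41.0%), with a summit in the whole day 0 list 449 bp away. Hoxd13, the partner of Hoxa13 in the digits, had a region 27 bp inside its start in all 3 libraries (66.5%, 53.7% and 82.7%) and 1 at 1598 bp at day 0 only (70.1%).

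The start windows of Hoxd1 and Hoxd11, at regions called in both day 7 libraries and not at day 0, are shown beside that of Hoxd10, which holds the best-ranked summit in a start window of HoxD (RefSeq, GRCm38.p6, all on the plus strand, chr2:74762730-74763029, chr2:74682073-74682372 and chr2:74691641-74691940), with capitals as above.
Hoxd1: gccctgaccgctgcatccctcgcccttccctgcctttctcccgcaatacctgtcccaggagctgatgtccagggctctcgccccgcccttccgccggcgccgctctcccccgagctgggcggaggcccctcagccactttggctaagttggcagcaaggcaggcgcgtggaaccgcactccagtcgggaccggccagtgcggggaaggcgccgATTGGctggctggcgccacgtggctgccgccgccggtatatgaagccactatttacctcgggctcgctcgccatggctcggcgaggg
Hoxd11: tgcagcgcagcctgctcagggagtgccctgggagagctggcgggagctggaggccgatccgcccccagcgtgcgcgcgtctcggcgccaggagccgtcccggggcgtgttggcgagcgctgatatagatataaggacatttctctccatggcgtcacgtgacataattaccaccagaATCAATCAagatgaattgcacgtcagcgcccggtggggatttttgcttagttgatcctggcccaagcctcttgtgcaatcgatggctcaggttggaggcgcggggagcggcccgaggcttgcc
Hoxd10: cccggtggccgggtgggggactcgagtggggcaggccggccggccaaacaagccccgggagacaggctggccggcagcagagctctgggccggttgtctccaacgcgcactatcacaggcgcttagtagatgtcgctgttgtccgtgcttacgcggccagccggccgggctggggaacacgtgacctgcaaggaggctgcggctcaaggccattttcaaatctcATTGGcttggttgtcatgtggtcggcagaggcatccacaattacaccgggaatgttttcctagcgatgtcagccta
In the Hoxd10 window the summits lay 94, 87 and 107 bases upstream of the start. In the Hoxd1 window they lay 78 bases upstream in the immobilized and 18 in the non-immobilized library. In the Hoxd11 window, 1 of 2 listed for that gene, they lay 45 bases inside the start in the immobilized and 245 upstream in the non-immobilized library.

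Start windows were given for 22 of the 38 genes, 24 windows in all, and for 1 gene of HoxC (Hoxc4) and 3 of HoxB. Of the 24 windows, 2 held a summit in all 3 libraries (Hoxa13 and Hoxd10), 7 in 1 or 2 libraries and 15 in none. In 4 of those 7 (Hoxa3, Hoxa5, Hoxa11 and Hoxd13) the region at the start was called in all 3 libraries, though not every summit fell in the window. The median GC content was 57.7% with 14.5 CpG, against 57.0% and 14 in 19945 start windows of protein-coding genes. The CCAAT box on either strand was in 15 of the 24 (62.5%) and in 37.96% of all windows. The Hox and Pbx site TGATNNAT was in 4 (16.7%) against 7.26%, and the TATAAA box in 4 (16.7%) against 12.6%. The Sp1 site GGGCGG was in 10 (41.7%) against 47.2%, and the AP-1 site TGANTCA in 1 (4.17%) against 7.02%. Such matches describe letters in these windows and are not binding sites.

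The comparison of the day 7 libraries addressed the effect of immobilization. Of the 80 Hox regions called in either, 12 were called with immobilization only, 20 without it only and 48 in both. These are 15%, 25% and 60% (48.4 to 70.8), against backgrounds of 18.3%, 17.1% and 64.6%. The clusters went different ways, with 1 and 6 in HoxA, 4 and 11 in HoxB, 6 and 2 in HoxC and 1 and 1 in HoxD. By gene, 7 had more regions with immobilization, 12 fewer and 19 equal numbers. Hoxc11 had 3 more in the immobilized library and Hoxc4 had 2 more, while Hoxa13, Hoxb4, Hoxb6, Hoxb7, Hoxb9 and Hoxc13 had 2 fewer each.

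The excess in the non-immobilized library depended on how the lists were cut. The share of the immobilized library among the 32 regions called in 1 of the 2 was 37.5% (21.1 to 56.3), against a background of 51.7%. When a region counted as missing only if the other whole list held no summit in it, the counts became 12 and 8 (60%, 36.1 to 80.9, against 66.5% for all regions), with 4 and 4 in HoxB, 1 and 2 in HoxA and 6 and 1 in HoxC.

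The immobilized day 7 library was next set against day 0. Of 74 Hox regions, 17 were called in the immobilized library only (23.0%, background 21.6%), 14 at day 0 only (18.9%, background 18.9%) and 43 in both (58.1%, 46.1 to 69.5, background 59.5%). In HoxB 8 were called in the immobilized library only and 4 at day 0 only, in HoxD 4 and 1, in HoxA 2 and 4 and in HoxC 3 and 5. Hoxb9 had 3 more regions in the immobilized library, Hoxb3, Hoxc11 and Hoxd10 had 2 more, Hoxc9 had 2 fewer and Hoxc13 3 fewer. The count for Hoxd10 includes the region that covered a start of Hoxd11. More regions in the immobilized library were found for 8 genes and fewer for 7. The share of the immobilized library among regions called in 1 of the 2 was 54.8% (36.0 to 72.7), against a background of 53.4%.

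The non-immobilized day 7 library was then set against day 0. Of 81 regions, 24 were called in the non-immobilized library only (29.6%, background 20.8%), 13 at day 0 only (16.0%, background 19.3%) and 44 in both (54.3%, 42.9 to 65.4, background 59.9%). HoxB had 14 against 3, a share of 82.4% (56.6 to 96.2) against a background of 51.9%, and 13 against 3 with absence from the whole list. That background was not matched for rank, and with the best 23956 summits of each list HoxB had 2 against 0. HoxC had 1 against 7, a share of 12.5% (0.316 to 52.7), and the same counts with absence from the whole list. HoxA had 5 against 2 and HoxD 4 against 1. For the 4 clusters the non-immobilized share of regions called in 1 of the 2 was 64.9% (24 of 37). It was 50% (10 of 20) without HoxB and 46.2% (6 of 13) with the best 23956 summits of each list. At day 7 without immobilization Hoxb9 had 5 more regions than at day 0, Hoxb4, Hoxb6, Hoxb7 and Hoxd3 had 2 more each, and Hoxc9 had 2 fewer. Both comparisons use the same day 0 library, so their counts are not independent. By the estimate of usable pairs, the non-immobilized library was the deepest and day 0 the shallowest. The part of depth in these counts was not tested.

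**Figure D3:**
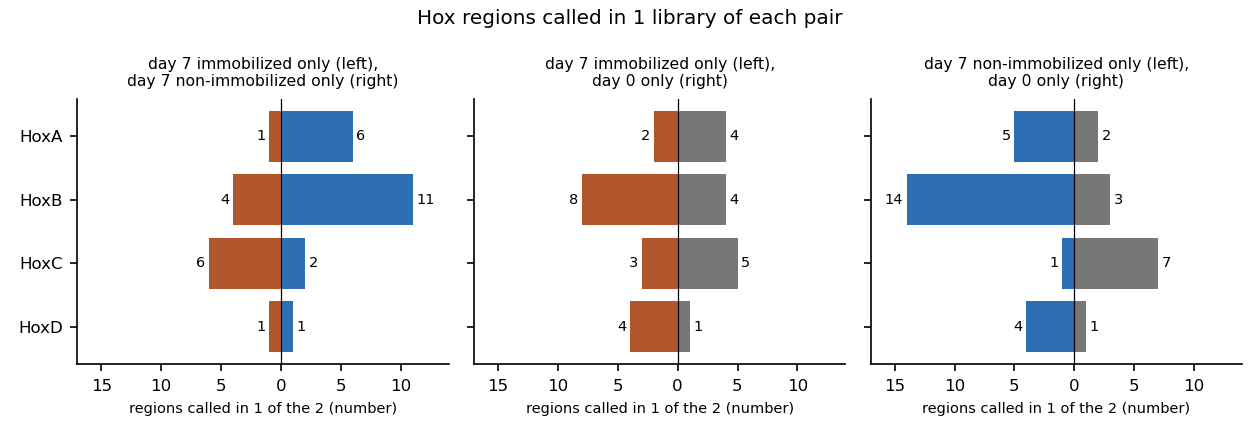
Number of Hox regions called in 1 library of each pair (x axis, to the left and right of 0) for the 4 clusters. HoxB reaches 14 against 3, and HoxC 1 against 7, for the non-immobilized library and day 0.

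**Figure D4:**
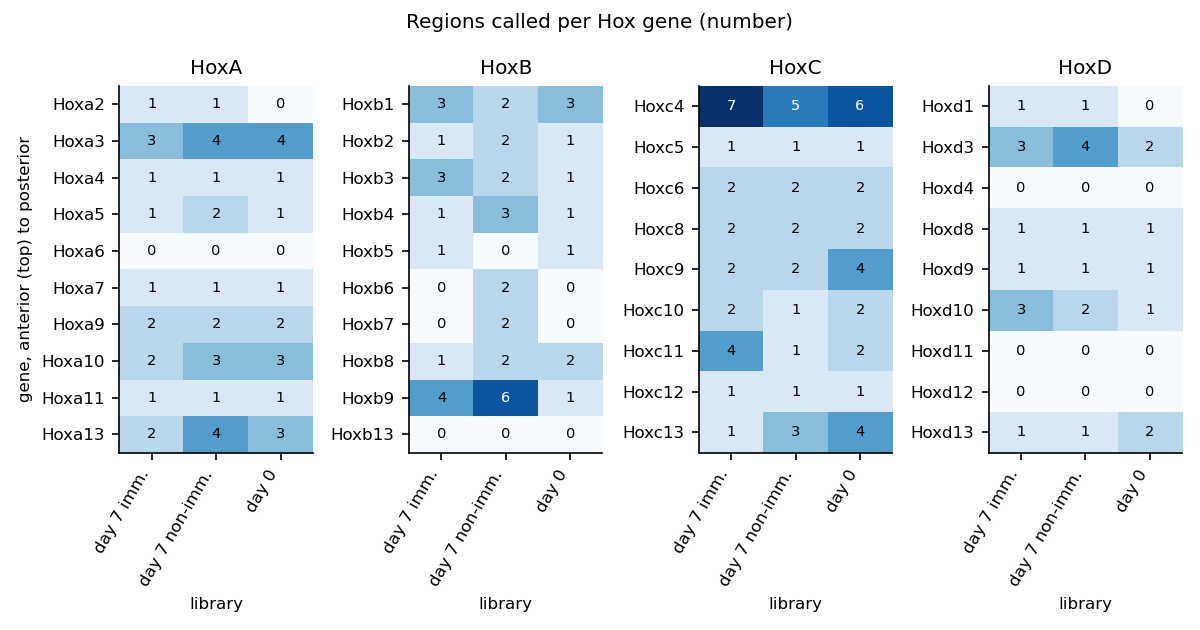
Number of regions called in each library (columns) for each of the 38 Hox genes (rows, anterior genes at the top), printed and shaded from 0 to 7. Hoxb9 shows 4, 6 and 1, and Hoxc11 shows 4, 1 and 2.

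Weak summits are more often missing from another list than strong ones, so each absence was set beside regions of like rank. Of the 3508 regions ranked between 50% and 60% in the non-immobilized list, 32.2% were not called at day 0, and of the 11 Hox regions among them 6 were not. Between 40% and 50% it was 23.8% of all regions and 1 of 10 Hox regions, and between 70% and 80% it was 47.1% and 5 of 11. Over all ranks, 24 of 68 Hox regions of the non-immobilized list were not called at day 0, where the rates of all regions of like rank give 21.6. For the immobilized list 17 of 60 were not called at day 0, against 19.03 at those rates, and for day 0 13 of 57 were not called in the non-immobilized library, against 15.6. Of the 57, 14 were not called in the immobilized library, against 15.5. Between the day 7 libraries, 20 of 68 non-immobilized regions were not called in the immobilized library, against 17.0. In the other direction it was 12 of 60, against 15.3. Of the 3633 regions ranked between 40% and 50% in the immobilized list, 25.05% were not called at day 0, and 3 of 12 Hox regions. No Hox region in the better 40% of either day 7 list was missing at day 0. Of the 3667 regions ranked between 30% and 40% at day 0, 7.34% were not called in the immobilized library, and among 13 Hox regions 1 was not, the one 246 bp outside Hoxc13.

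**Figure D5:**
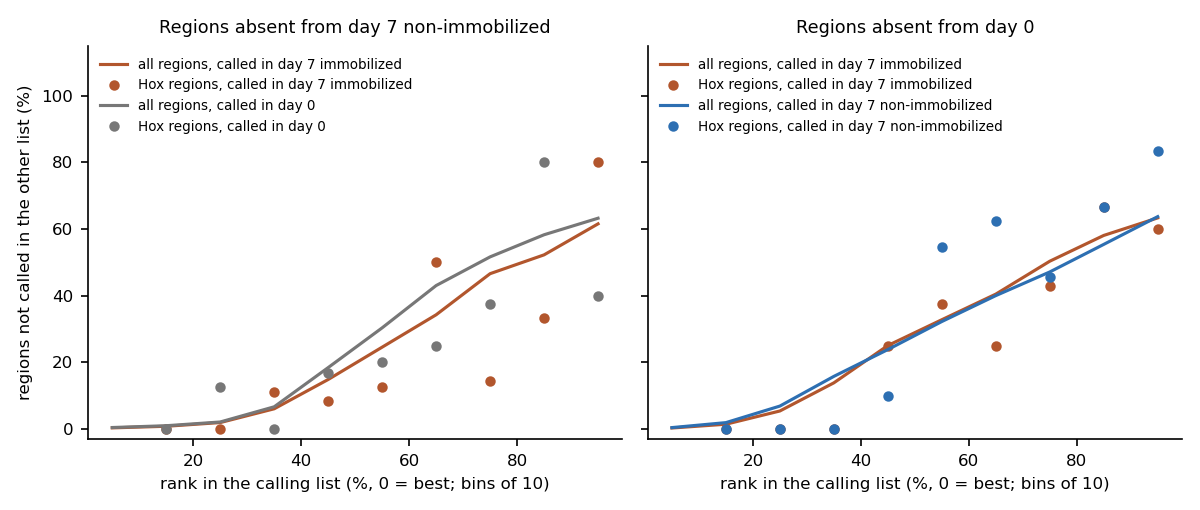
Percent of regions not called in the non-immobilized library (left) or at day 0 (right) by their rank in the list that called them (x axis, bins of 10 points, 0% the best), with lines for all regions and points for Hox regions. The grey point near a rank of 25% on the left is 1 of 8 Hox regions, at Hoxc11, where the line for all regions stands at 2.13%.

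Regions were also grouped by the number of the nearest gene, which is not a strict order of position. The spans of Hoxa3, Hoxb3 and Hoxd3 run over central genes. Regions at the far ends of these spans were called in all 3 libraries and count as anterior. The regions of Hoxb1 lay outside the cluster. The anterior genes (numbers 1 to 3) had 22 regions. Of these, 15, 16 and 11 were called in the immobilized, non-immobilized and day 0 libraries. The central genes (4 to 8) had 28, called as 19, 24 and 19, and the posterior genes (9 to 13) had 38, called as 26, 28 and 27. The shares called were 68.2%, 72.7% and 50% for anterior, 67.9%, 85.7% and 67.9% for central and 68.4%, 73.7% and 71.1% for posterior genes, against 72.8%, 71.7% and 70.4% of the regions near any gene. Regions in all 3 libraries were 9 of 22 (40.9%, 20.7 to 63.6), 15 of 28 (53.6%, 33.9 to 72.5) and 14 of 38 (36.8%, 21.8 to 54.0), against 48.4%. The near equal totals of the posterior genes hid opposite cluster counts: posterior HoxB, with regions of Hoxb9 alone, had 4, 6 and 1, posterior HoxC 10, 8 and 13, posterior HoxA 7, 10 and 9, and posterior HoxD 5, 4 and 4.

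The clusters also hold microRNA genes, and their mature 5p arms show the relation between clusters. The miR-196 genes lie on the posterior side of Hoxa9, Hoxb9 and Hoxc9, and miR-196 is known to repress Hox transcripts such as that of Hoxb8. The miR-10 genes lie near the paralogs numbered 4. Capitals mark the seed, bases 2 to 8 (RefSeq, GRCm38.p6).
miR-196a-5p: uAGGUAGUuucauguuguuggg
miR-196b-5p: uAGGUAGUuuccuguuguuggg
miR-10a-5p: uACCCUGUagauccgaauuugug
miR-10b-5p: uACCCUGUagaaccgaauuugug
Each pair shares its seed. The region nearest to the miR-10a hairpin in HoxB, 1393 bp away, was the Hoxb4 region called in both day 7 libraries only. The nearest to the miR-196a-1 hairpin in HoxB, 3502 bp away, was called in the non-immobilized library only, and that nearest to the miR-196a-2 hairpin in HoxC, 2686 bp away, at day 0 only. For miR-196b in HoxA it lay 3520 bp away and was called in the non-immobilized and day 0 libraries, and for miR-10b in HoxD 10157 bp away and in all 3. These genes were chosen after the values were seen.

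The 9 Pbx, Meis and Pknox genes, which encode cofactors that bind DNA with Hox proteins, all had regions, 29, 31 and 25 by library. Of their 38 regions, 20 were in all 3 (52.6%, 35.8 to 69.0), against a background of 48.4%. Meis1 had 5 regions, all shared. The 26 Polycomb, Trithorax and chromatin loop genes had 65, 68 and 60 regions, with 48 of 83 in all 3 (57.8%, 46.5 to 68.6). Of these, Ezh2, Suz12, Bmi1 and Ctcf had 1 region each, in all 3 libraries, and Pcgf2 had 2, 4 and 1. The 8 upstream regulators had 24, 19 and 19 regions, 15 of 30 shared (50%, 31.3 to 68.7). Cyp26b1, which breaks down retinoic acid, had 7, 2 and 1, and Aldh1a2, which makes it, had 2, 3 and 5. The 10 genes next to the clusters found in the gene table had 29, 27 and 27 regions, with 19 of 37 shared (51.4%, 34.4 to 68.1). The interval of each of these lists includes the background of 48.4%. Beside HoxB, Skap1 had 2, 4 and 1 and Ttll6 0, 1 and 0, and beside HoxC, Smug1 had 10, 7 and 9 and Gpr84 2, 1 and 1. Beside HoxA, Hibadh had 6, 4 and 7, Skap2 2, 3 and 3 and Evx1 2, 1 and 1. Beside HoxD, Mtx2 had 4 regions and Lnpk 1, all shared, and Evx2 had 0, 1 and 0.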

How the data were processed

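Each group, as the titles of the samples give it, had 1 library, prepared with Omni-ATAC per the labels' protocols. Among the names in the submitters' processing notes, which state no roles, are the aligner Bowtie2 (2.3.4.1), the peak caller MACS2 (2.1.2) and the build mm10. The peak cutoff, the read filters and any shift for the transposase were not stated. The deposited lists give 1 summit per peak, called separately in each library, with a score that the layout of MACS2 makes a −log10 of a p-value or q-value. In the deposited run statistics, reads are counts, duplication is a fraction and alignment a percent (92.5%, 89.9% and 90.9% for immobilized, non-immobilized and day 0).

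Lists were reduced by score to 47912 summits, which left out 28.9% of the immobilized and 7.37% of the day 0 list, and lowest scores kept were 6.61, 1.33 and 4.00. Summits were widened by 250 bp on each side, overlapping windows merged, and each region assigned by its best-ranked summit to the nearest of either gene end within 50 kb (GRCm38.p6, the assembly of mm10). The gene table has no strand, so starts were known only for genes with a start window. Absence means that no summit passed. Positions count from 1. Named with all their regions are the members with the most regions per cluster, those whose counts differ by 2 or more between libraries, those with 0 regions, the best-ranked region of each cluster and every region called in 1 library. Start windows printed were narrowed, after the values were seen, to those whose region was not called in all 3 libraries and the best-ranked ones. Members and lists were chosen with earlier results of these data known. Region building and distances were checked on 5000 simulated regions and 1000 positions. Python (3.11.15) was used with pandas 2.3.3 for tables, scipy 1.17.1 for intervals, and numpy 2.4.6.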

Additional observations from a re-analysis of the deposited data

Results flagged for a closer look

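With 1 library per group, a difference was marked where the immobilized and the non-immobilized library departed from day 0 in opposite directions, and these differences were not tested. In HoxA, regions called only at day 7 minus those called only at day 0 came to -2 in the immobilized and 3 in the non-immobilized library. With the lists as deposited the HoxA values were 2 and 3, so the directions were opposite in the reduced lists and not in these. For Hoxa13 these values were -1 and 1, and 2 of its regions that were not called in the immobilized library held summits in the whole immobilized list. For Hoxc4 they were 1 and -1, and for Hoxc11 2 and -1.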

How the results depend on the processing

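Of 89 recomputed values under 11 alternatives, 69 stayed within the 95% interval of the reported share or within 1.5 times the reported count, 15 moved farther and 5 shares crossed 50%. Shares below are of the first-named library among regions called in 1 of the 2. Lists as deposited gave 70.4% for immobilized against non-immobilized (37.5% in the report) and 75.7% for immobilized against day 0, the immobilized list being the longest. With absence judged on the whole deposited list, chosen after seeing the data, the share for immobilized against non-immobilized was 60%. With the best 23956 summits of each list there were 43 Hox regions (14, 7, 16 and 6 in HoxA, HoxB, HoxC and HoxD), and shares of 56.2% for immobilized against non-immobilized and 46.2% for non-immobilized against day 0. Summits widened by 500 bp put 56.9% of regions in all 3 libraries. Assignment to the nearest end of any gene, non-coding ones included, left 56 regions (14 in HoxA and 14 in HoxB), and to the gene that holds the summit 49 (14, 15 and 12 in HoxA, HoxB and HoxC). The nearest gene start left 11 in HoxC, since start windows were given for 22 of 38 genes. Without HoxB, chosen after seeing the data, the share for immobilized against day 0 was 47.4% and that for non-immobilized against day 0 was 50%. No paired analysis was possible because each group has 1 library. Depth limits all counts: summits of weak peaks are missed first.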
